A study of Mus musculus with 6 samples.

Results

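The genes described here encode the enzymes and a regulator of cholesterol synthesis, in mature CD8 thymocytes of mice that lack Tcf1 or both Tcf1 and Lef1. The set was named as Hmgcs1, Idi1, Fdps, Fdft1, Lss, Cyp51 and Insig1, 7 genes in all, and its rows were taken by gene symbol. Of these, 6 were found among the 16383 genes listed in the expression table, and Hmgcs1 is not analysed here. No gene of sterol uptake is in the set, and genes of uptake and trafficking are given from a separate list.

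Cells were sorted from thymus as CD8-positive cells with high surface TCRβ and without CD69 or CD24. The 3 genotypes were Tcf1-/-Lef1-/- (DKO), Tcf1-/- (Tcf1 KO) and wild type (WT), with 2 RNA-seq libraries each. Deletion was by CD4-Cre in the series' design text, a transgene that becomes active in thymocytes at about the double-positive stage. The sample labels name no floxed allele, do not say whether WT mice carried Cre, and give no strain, sex or age. Whether replicate libraries were made from different animals is not stated either. The p-values therefore measure the spread between these libraries, which may be technical.

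Cholesterol is built from acetyl-CoA through mevalonate, isoprenoid diphosphates, squalene and lanosterol. Hmgcs1 acts before mevalonate, Idi1 and Fdps make the isoprenoid units and farnesyl diphosphate, Fdft1 joins these to squalene, Lss closes the ring to lanosterol, and Cyp51 removes a methyl group from it. The SREBP transcription factors drive most of these genes when sterols are low, and Insig1, itself a target, holds SREBP in the endoplasmic reticulum when sterols are high. T cells are known to raise this pathway when they are activated and divide.

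Levels are the deposited FPKM values, which count fragments per length of transcript and per depth of the library. Log2 changes are differences of log2(FPKM + 1), DKO or Tcf1 KO minus its comparison, given with their standard error (SE), and a gene is called at a limma adjusted p under 0.05 over the 6761 genes tested. Adding 1 to the FPKM understates changes of genes at a few FPKM, so ratios of mean FPKM are given too. The spacing of low values in short transcripts put the depth of the shallowest library at about 0.843 of the deepest, and each member at about 402 to 1513 fragments per library. The counting error alone would then be at most 5.0% of a value, and this depth is approximate.

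Lef1, a targeted gene, had 130.92 and 130.23 FPKM in the DKO libraries, 308.74 and 311.52 FPKM in the Tcf1 KO libraries and 316.1 and 281.86 FPKM in the WT libraries. It fell by 1.19 ± 0.06 (SE) on the log2 scale in DKO against WT (limma adjusted p = 0.000157). Tcf7, which encodes Tcf1, is not analysed here. Cd8a and Cd8b1 were at 516.44 to 940.97 FPKM in all 6 libraries. Cd4, the co-receptor of the helper lineage, was at 128.95 and 63.72 FPKM in DKO libraries, 15.06 and 6.27 FPKM in Tcf1 KO libraries and 1.41 and 0.65 FPKM in WT libraries.

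All 6 listed members passed the filter of at least 1 FPKM in at least 2 libraries. In DKO against WT, 3 of the 6 were called, and all 3 fell: Fdft1, Cyp51 and Idi1. Over all tested genes 49.5% were called in this comparison, 27.8% lower and 21.7% higher, so the share of members called was close to that of all genes. The lean of all genes towards falls turned with the scaling: 1465 were higher and 1880 lower as reported, 1781 higher and 1617 lower with medians aligned, and 1817 higher and 1626 lower with quantile scaling. The median log2 change of the members was -0.39, against -0.03 for all genes tested. The falls were modest, with mean FPKM ratios of DKO to WT from 0.622 to 0.664. The call of each of the 3 genes ended when either WT library was left out. In sorted bulk cells, fewer cells of a kind and less RNA per cell cannot be told apart.

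**Figure D1:**
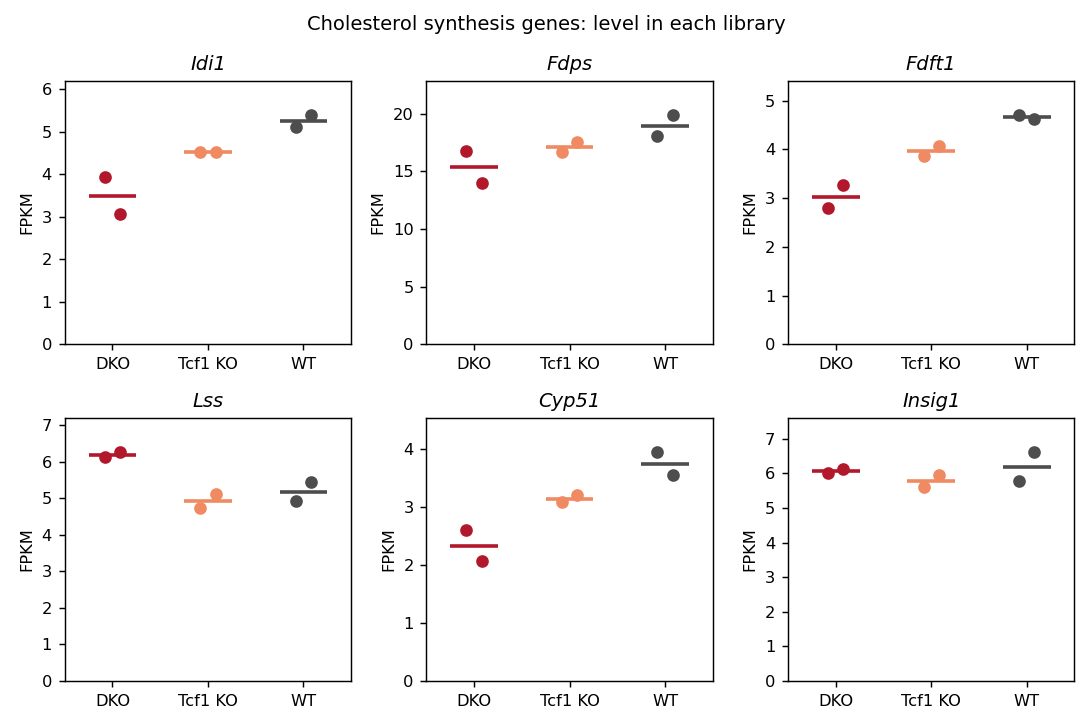
FPKM of the 6 members (y axis) in each library, with the DKO, Tcf1 KO and WT libraries along the x axis; points are libraries and bars are means of 2. Idi1, Fdft1 and Cyp51 were lowest in DKO and highest in WT without overlap, Lss was highest in DKO (6.13 and 6.27 FPKM), and Insig1 lay between 5.6 and 6.62 FPKM throughout.

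Fdft1 is squalene synthase, the enzyme that commits farnesyl diphosphate to sterols. It had 2.79 and 3.26 FPKM in DKO libraries, 3.87 and 4.08 FPKM in Tcf1 KO libraries and 4.7 and 4.63 FPKM in WT libraries. The 3 genotypes did not overlap, with DKO lowest. The log2 change was -0.50 ± 0.09 in DKO against WT (limma adjusted p = 0.00749), a mean ratio of 0.648. Without WT replicate 1 the adjusted p was 0.0538, and without WT replicate 2 it was 0.0519 (limma).

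Cyp51 is the lanosterol demethylase of the steps after ring closure. It was at 2.59 and 2.06 FPKM in DKO libraries, 3.08 and 3.2 FPKM in Tcf1 KO libraries and 3.94 and 3.54 FPKM in WT libraries. Again the DKO libraries were lowest and the WT libraries highest, with no overlap. The log2 change in DKO against WT was -0.51 ± 0.11 (limma adjusted p = 0.0129), and the ratio of means, 0.622, was the lowest of the 6 members. The call ended without WT replicate 1 (limma adjusted p = 0.0854), without WT replicate 2 (0.0503), under quantile scaling (0.0632) and without the filter on low values (0.0655).

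Idi1 interconverts the isoprenoid diphosphates that Fdps condenses. Its levels were 3.92 and 3.05 FPKM in DKO libraries, 4.51 and 4.52 FPKM in Tcf1 KO libraries and 5.11 and 5.38 FPKM in WT libraries. The genotypes were ordered as for Fdft1 and Cyp51, and the DKO libraries lay furthest apart. The log2 change was -0.48 ± 0.11 in DKO against WT (limma adjusted p = 0.016), a ratio of 0.664. The call ended without WT replicate 1 (limma adjusted p = 0.068), without WT replicate 2 (0.0975), under quantile scaling (a change of -0.31, adjusted p = 0.0688) and without the filter (0.0781).

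Fdps makes farnesyl diphosphate, from which sterols, prenyl groups and dolichol are derived. It was the most abundant member, with 16.77 and 13.98 FPKM in DKO libraries, 16.7 and 17.53 FPKM in Tcf1 KO libraries and 18.07 and 19.86 FPKM in WT libraries. Both DKO libraries lay below both WT libraries, while DKO and Tcf1 KO overlapped. The log2 change in DKO against WT, -0.29 ± 0.10, did not pass the test (limma adjusted p = 0.0549), with a 95% interval of -0.53 to -0.04 for the difference. Without DKO replicate 1, the higher of the DKO libraries, the change was -0.41, and without DKO replicate 2 it was -0.17.

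Lss, the cyclase that makes lanosterol, had an estimate of the opposite sign to those of Fdft1 and Cyp51 in DKO. It had 6.13 and 6.27 FPKM in DKO libraries, 4.75 and 5.12 FPKM in Tcf1 KO libraries and 4.92 and 5.44 FPKM in WT libraries. The DKO libraries lay above all 4 others, and Tcf1 KO and WT overlapped. Against WT the log2 change of 0.22 ± 0.08 did not pass the test (limma adjusted p = 0.0727), but it passed under median scaling (0.28, adjusted p = 0.0274) and quantile scaling (0.37, adjusted p = 0.00966).

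Insig1, the regulator, was at 6.01 and 6.13 FPKM in DKO libraries, 5.6 and 5.97 FPKM in Tcf1 KO libraries and 5.78 and 6.62 FPKM in WT libraries. The DKO libraries lay within the range of the WT libraries. The log2 change in DKO against WT was -0.02 ± 0.09 (limma adjusted p = 0.843), with a 95% interval of -0.24 to 0.19, and its sign turned under median and quantile scaling (0.0322 and 0.12). That interval does not reach the estimates of Fdft1, Idi1 or Cyp51. It overlaps the 95% intervals of Idi1 (-0.76 to -0.2) and Cyp51 (-0.8 to -0.23), and that of Fdft1 (-0.73 to -0.26) lies just below it. The difference between Insig1 and these genes was not itself tested. Its relative Insig2 was at 8.71 and 9.3 FPKM in DKO libraries, 8.93 and 8.53 FPKM in Tcf1 KO libraries and 8.74 and 8.37 FPKM in WT libraries (DKO against WT, 0.07 ± 0.07, limma adjusted p = 0.471).

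The order of the members' levels was similar across genotypes. Fdps was highest at more than 2 times the FPKM of the next member, and Cyp51 was lowest, in every library. Insig1 and Lss came next in DKO and Tcf1 KO libraries, while in WT libraries Insig1 came next and Lss (4.92 and 5.44 FPKM) overlapped with Idi1 (5.11 and 5.38 FPKM). Lss and Insig1 overlapped in DKO and in neither of the other genotypes, where Insig1 was above Lss. Fdft1 and Idi1 overlapped in DKO libraries, and in Tcf1 KO and WT libraries Idi1 was above Fdft1.

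Loss of Tcf1 alone moved no member past the threshold. Of the 6 members 0 were called in Tcf1 KO against WT by limma, against 2.09% of all genes called (1.33% higher and 0.754% lower). At an unadjusted limma p under 0.05, 0 of the 6 members passed, beside 1429 of the 6761 genes tested. All 6 estimates were below 0, beside 3511 of the 6761 genes tested. The members' median was -0.16, against -0.01 for all genes tested. The estimates of Insig1 and Lss turned sign without WT replicate 2. The largest in size were Cyp51 (-0.19 ± 0.11, 95% interval -0.47 to 0.09) and Fdft1 (-0.19 ± 0.09, -0.42 to 0.04), with limma adjusted p of 0.404 and 0.333. Both WT libraries of Fdft1, Fdps, Idi1 and Cyp51 lay above both Tcf1 KO libraries. The share of all tested genes with such a gap was not counted, so this is a description only.

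The effect of losing Lef1 in addition to Tcf1 was read from DKO against Tcf1 KO. In this comparison 38.4% of tested genes were called, 22.6% lower and 15.9% higher, and 2 of the 6 members. The 1072 higher and 1527 lower genes became 1312 higher and 1271 lower with medians aligned, and 1331 higher and 1302 lower with quantile scaling. Fdft1 fell (-0.31 ± 0.09, limma adjusted p = 0.0473) and Lss rose (0.28 ± 0.08, limma adjusted p = 0.0451). Both calls were near the threshold: that of Fdft1 ended under 9 and that of Lss under 8 of 13 alternatives, including the removal of either Tcf1 KO library or either WT library (limma adjusted p from 0.0846 to 0.171). Under quantile scaling the change of Fdft1 was -0.15 (adjusted p = 0.209). Cyp51 (-0.32 ± 0.11, limma adjusted p = 0.0728) and Idi1 (-0.31 ± 0.11, limma adjusted p = 0.0838) did not pass. Without DKO replicate 1, the higher library for both genes, their changes were -0.44 and -0.45. Without DKO replicate 2 their changes were -0.21 and -0.16. The comparisons with WT share the WT libraries and those with DKO share the DKO libraries, so their values are not independent of each other.

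Fdft1, Idi1 and Cyp51 had every DKO library below every Tcf1 KO library and these below every WT library. That order without overlap was seen in 3 of the 6 members and in 18.2% of all tested genes. Among 11 other tested enzymes of the pathway it was seen in 2, among them Nsdhl.

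The other enzymes of the pathway came from a textbook list of 15 genes, of which 11 were listed and tested. In DKO against WT 2 fell, 1 rose and 8 were not called, beside 49.5% of all tested genes called. Their median log2 change was 0.08.

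Nsdhl acts on the methyl groups of the sterol ring after Cyp51. It was at 4.57 and 4.68 FPKM in DKO libraries, 5.04 and 5.44 FPKM in Tcf1 KO libraries and 6.05 and 6.13 FPKM in WT libraries, and fell in DKO against WT (-0.33 ± 0.08, limma adjusted p = 0.0147). This call ended without WT replicate 1 (0.0828), without WT replicate 2 (0.0972) and under quantile scaling (0.071). Mvk, mevalonate kinase, fell in DKO against Tcf1 KO (-0.50 ± 0.11, limma adjusted p = 0.0191) and was at -0.30 ± 0.11 against WT (adjusted p = 0.0769). The Mvk call ended without DKO replicate 2 (0.0576), without Tcf1 KO replicate 2 (0.0648) and without the filter (0.0964).

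Msmo1, a sterol methyl oxidase of the steps after Cyp51, moved the other way. It had 12.19 and 10.82 FPKM in DKO libraries, 7.8 and 7.74 FPKM in Tcf1 KO libraries and 5.97 and 6.47 FPKM in WT libraries. It rose in DKO against WT (0.79 ± 0.08, limma adjusted p = 0.000954) and against Tcf1 KO (0.51 ± 0.08, adjusted p = 0.00663), and both calls held under all 13 alternatives. In Tcf1 KO against WT it was at 0.28 ± 0.08 and did not pass (limma adjusted p = 0.133). Mvd, which makes isopentenyl diphosphate, was at 0.15 ± 0.08 in DKO against WT (adjusted p = 0.167).

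**Figure D2:**
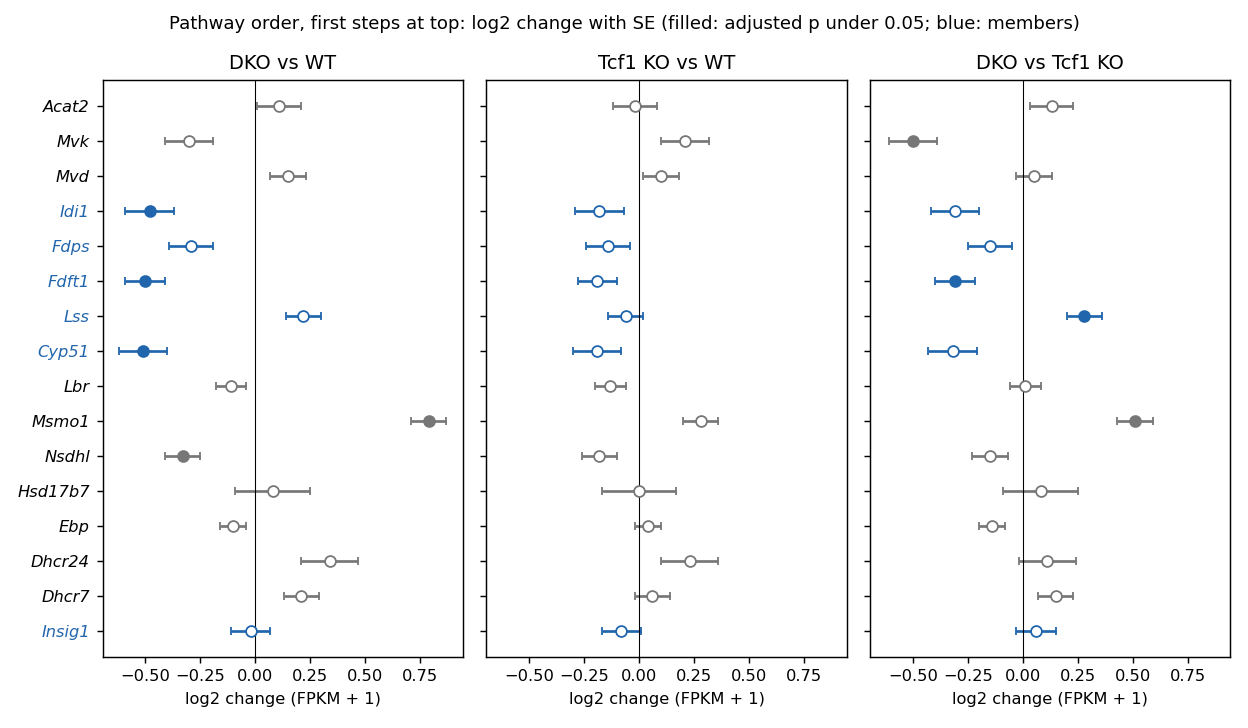
Log2 change (x axis, with SE bars) of 15 tested enzyme genes and of Insig1 in the 3 comparisons; genes run from the early steps at the top to the late steps, members in blue, filled points are called. In DKO against WT the called falls of Idi1, Fdft1, Cyp51 and Nsdhl stand beside the called rise of Msmo1 at 0.79.

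Ratios between enzymes within a library do not change when all values of the library are multiplied by the same factor, though quantile scaling can change them. These pairs were chosen after their values were seen and are a description only. The ratio of Lss to Fdft1 FPKM was 2.2 and 1.92 in DKO libraries, 1.23 and 1.25 in Tcf1 KO libraries and 1.05 and 1.17 in WT libraries. That of Lss to Cyp51 was 2.37 and 3.04 in DKO libraries, 1.54 and 1.6 in Tcf1 KO libraries and 1.25 and 1.54 in WT libraries. That of Msmo1 to Cyp51 was 4.71 and 5.25 in DKO libraries, 2.53 and 2.42 in Tcf1 KO libraries and 1.52 and 1.83 in WT libraries. In these 3 ratios both DKO libraries lay above the other 4, an outcome that the choice of pairs fixes. The ratio of Insig1 to Insig2 was 0.69 and 0.659 in DKO libraries, 0.627 and 0.7 in Tcf1 KO libraries and 0.661 and 0.791 in WT libraries, and the genotypes overlapped.

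**Figure D3:**
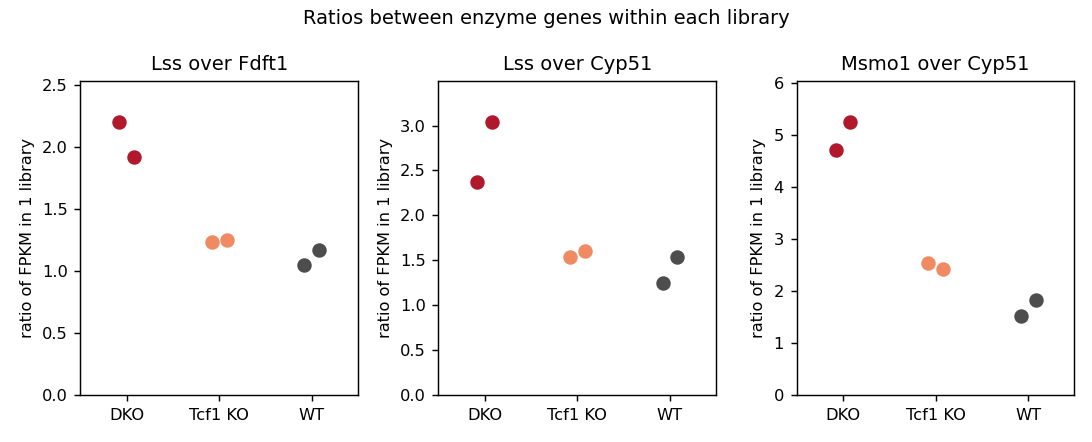
Ratio of FPKM between pairs of enzyme genes within each library (y axis) in DKO, Tcf1 KO and WT; each point is 1 library. The DKO libraries had the highest ratios in all 3 panels, up to 5.25 for Msmo1 over Cyp51.

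Promoter sequence is shown for members that moved in different ways, Idi1 and Cyp51, which fell in DKO against WT, and Lss and Insig1, which did not. The windows are RefSeq's on build GRCm38.p6, matched by symbol for these 4 of the 6 members. They run 5′ to 3′ on the strand of the gene from 250 bases before its start, for Lss 210 bases, ending where the annotated gene begins. Capitals mark a CCAAT box (CCAAT) or a GC box (GGGCGG) on either strand.
Idi1, chr13:8885356-8885605, plus strand: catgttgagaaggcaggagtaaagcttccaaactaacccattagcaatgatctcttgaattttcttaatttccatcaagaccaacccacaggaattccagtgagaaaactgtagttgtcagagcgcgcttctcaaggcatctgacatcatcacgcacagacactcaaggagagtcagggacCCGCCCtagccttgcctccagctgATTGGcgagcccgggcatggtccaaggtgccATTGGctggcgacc
Cyp51, chr5:4104698-4104947, minus strand: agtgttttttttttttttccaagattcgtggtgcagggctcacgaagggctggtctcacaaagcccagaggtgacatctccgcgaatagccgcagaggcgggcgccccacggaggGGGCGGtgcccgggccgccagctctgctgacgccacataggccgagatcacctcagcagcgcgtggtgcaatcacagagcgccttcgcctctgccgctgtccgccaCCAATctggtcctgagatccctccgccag
Lss, chr10:76531355-76531564, plus strand: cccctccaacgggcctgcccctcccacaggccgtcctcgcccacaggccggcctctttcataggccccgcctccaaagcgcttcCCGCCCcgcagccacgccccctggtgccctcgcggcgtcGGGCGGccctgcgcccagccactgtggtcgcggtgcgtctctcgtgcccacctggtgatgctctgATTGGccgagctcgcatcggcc
Insig1, chr5:28071162-28071411, plus strand: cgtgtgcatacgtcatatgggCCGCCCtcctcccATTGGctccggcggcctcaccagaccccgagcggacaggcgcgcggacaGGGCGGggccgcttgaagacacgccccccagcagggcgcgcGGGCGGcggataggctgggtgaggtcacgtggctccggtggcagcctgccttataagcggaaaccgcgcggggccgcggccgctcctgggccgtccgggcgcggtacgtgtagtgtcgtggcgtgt

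All 4 windows held a CCAAT box and a GC box, sites at which the factors NF-Y and Sp1 bind and which often lie beside SREBP sites. Over all 32851 RefSeq windows of 250 bases, 33.8% held CCAAT and 32.7% held GGGCGG on either strand. Only the form TCACNCCAC of the sterol regulatory element was searched, and it was in none of the 4 and in 1.05% of all windows. Other forms were not searched, so this does not show that the windows lack SREBP sites. The TCF/LEF forms CTTTGAT and CTTTGAA were in none of the 4 and in 3.21% and 4.46% of all windows. These are matches of letters in short windows, and the searched motifs do not overlap in them. The members that fell and those that did not shared the same searched motifs.

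Around the synthesis genes, 6 lists of sterol and lipid genes held 77 names, of which 56 were listed and 49 tested. In DKO against WT 10 of the 49 rose, 12 fell and 27 were not called, and the median log2 change was 0.04. These 22 calls among 49 genes stand beside 49.5% of all genes called, and under median scaling 12 rose and 9 fell, under quantile scaling 13 and 9. Of these 22 calls, 8 held under all 13 alternatives. In Tcf1 KO against WT 0 of the 49 were called by limma. At an unadjusted limma p under 0.05, 8 of the 49 passed, beside 1429 of the 6761 genes tested. In DKO against Tcf1 KO 3 rose and 10 fell, beside 38.4% of all genes called. Under median scaling 7 rose and 8 fell, and under quantile scaling 5 rose and 8 fell. Of the 13 calls 5 held under all 13 alternatives.

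Regulators of SREBP showed small changes. Of 7 tested, 1 rose and 2 fell in DKO against WT, beside 49.5% of all tested genes called. These were Erlin2 (0.22 ± 0.07), Erlin1 (-0.35 ± 0.11) and the protease gene Mbtps1 (-0.17 ± 0.05), with limma adjusted p from 0.0462 to 0.0496. The erlins are membrane proteins of the endoplasmic reticulum that take part in sterol-dependent degradation. These calls ended under 7, 10 and 10 of 13 alternatives. In DKO against Tcf1 KO 1 of the 7 was called, Mbtps1, which fell (-0.24 ± 0.05, limma adjusted p = 0.0188) but not without DKO replicate 1 (0.0609), without Tcf1 KO replicate 2 (0.0979) or without the filter (0.067).

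Of 10 tested uptake and trafficking genes 3 rose and 2 fell in DKO against WT, beside 49.5% of all tested genes called. Lipa, the lysosomal lipase that frees cholesterol from its esters, was at 17.54 and 14.98 FPKM in DKO libraries, 38.18 and 37.13 FPKM in Tcf1 KO libraries and 36.3 and 35.31 FPKM in WT libraries. It fell by 1.10 ± 0.08 on the log2 scale in DKO against WT (limma adjusted p = 0.000321).

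Npc2, the lysosomal cholesterol carrier, fell with it. It had 61.31 and 55.16 FPKM in DKO libraries, 98.95 and 103.3 FPKM in Tcf1 KO libraries and 107.82 and 106.41 FPKM in WT libraries (-0.87 ± 0.06 in DKO against WT, limma adjusted p = 0.000312). For both Lipa and Npc2 the Tcf1 KO libraries were close to WT and the DKO libraries far below, and both calls held under all 13 alternatives. The rises were in Mylip, which encodes a ubiquitin ligase induced by LXR (0.76 ± 0.21), the oxysterol-binding protein gene Osbp (0.30 ± 0.06) and the sterol transfer gene Gramd1a (0.28 ± 0.05). Without WT replicate 2, all 3 rises missed the threshold (limma adjusted p = 0.0882, 0.062 and 0.0579). Mylip also missed it without WT replicate 1 (0.118), without DKO replicate 2 (0.0627) and without the filter (0.173), and Gramd1a without the filter (0.0512).

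In the list of efflux and esterification genes 2 of 5 tested rose in DKO against WT, beside 49.5% of all tested genes called. Apoe, an apolipoprotein gene, rose by 0.50 ± 0.11 (limma adjusted p = 0.0138) and Nr1h2, which encodes the oxysterol receptor LXRβ, by 0.20 ± 0.05 (adjusted p = 0.0234). Both calls ended without WT replicate 2 (limma adjusted p = 0.0903 and 0.115), and that of Nr1h2 also without WT replicate 1 (0.0949), DKO replicate 1 (0.0555) or DKO replicate 2 (0.0666). Without the filter neither passed (0.0801 for Apoe and 0.0659 for Nr1h2). The cholesterol exporter gene Abca1, a target of LXR, was at 13.98 and 18.38 FPKM in DKO libraries, 21.42 and 33.6 FPKM in Tcf1 KO libraries and 13.09 and 9.92 FPKM in WT libraries. Its difference in Tcf1 KO against WT (1.17 ± 0.25) did not pass (limma adjusted p = 0.0757), and the Tcf1 KO libraries differed widely.

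Among fatty acid synthesis genes, many of them SREBP targets too, Fasn, Mid1ip1 and Acaca had larger log2 falls than any member. Of 9 tested, 4 fell and 1 rose in DKO against WT, with a median of -0.27, beside 49.5% of all tested genes called. Fasn, fatty acid synthase, was at 13.84 and 16.87 FPKM in DKO libraries, 23.9 and 25.76 FPKM in Tcf1 KO libraries and 29.65 and 32.87 FPKM in WT libraries (-0.98 ± 0.11 in DKO against WT, limma adjusted p = 0.00104). Acaca, acetyl-CoA carboxylase, had 2.65 and 3.31 FPKM in DKO libraries, 5 and 5 FPKM in Tcf1 KO libraries and 6.26 and 6.73 FPKM in WT libraries (-0.92 ± 0.11, limma adjusted p = 0.00127).

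Mid1ip1, whose product activates acetyl-CoA carboxylase, fell by 0.96 ± 0.10 on the log2 scale (limma adjusted p = 0.00087) and the elongase Elovl6 by 0.40 ± 0.08 (adjusted p = 0.00767). Acss2, which makes acetyl-CoA from acetate, rose, with 75.42 and 77.99 FPKM in DKO libraries, 32.98 and 41.39 FPKM in Tcf1 KO libraries and 31.38 and 29.65 FPKM in WT libraries (1.30 ± 0.11, limma adjusted p = 0.000432). The calls of Fasn, Acaca, Mid1ip1 and Acss2 in DKO against WT held under all 13 alternatives, and that of Elovl6 ended without WT replicate 1 (0.0621) or WT replicate 2 (0.0507).

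Farnesyl diphosphate, the product of Fdps, is also used to prenylate proteins and to make dolichol. Of 7 tested genes of isoprenoid use 2 rose and 2 fell in DKO against WT, beside 49.5% of all tested genes called. Fntb, the beta subunit of farnesyltransferase, was at 5.3 and 4.26 FPKM in DKO libraries, 18.45 and 17.71 FPKM in Tcf1 KO libraries and 20.62 and 19.19 FPKM in WT libraries. It fell by 1.86 ± 0.10 on the log2 scale (limma adjusted p = 0.000169), the largest fall among the 49 tested genes of the 6 lists.

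Fnta, the alpha subunit, which farnesyltransferase shares with another prenyltransferase, rose slightly (0.20 ± 0.05, limma adjusted p = 0.0204). Ggps1, which makes geranylgeranyl diphosphate, also rose (0.31 ± 0.06, adjusted p = 0.00961), and Dhdds, of dolichol synthesis, fell (-0.31 ± 0.10, adjusted p = 0.0409). Without WT replicate 2 these 3 calls ended (limma adjusted p = 0.107, 0.0721 and 0.0622). That of Fnta also ended without DKO replicate 1 (0.0695), those of Fnta and Dhdds without WT replicate 1 (0.0995 and 0.208), and that of Dhdds under 9 of 13 alternatives in all. The call of Fntb held under all 13 alternatives.

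**Figure D4:**
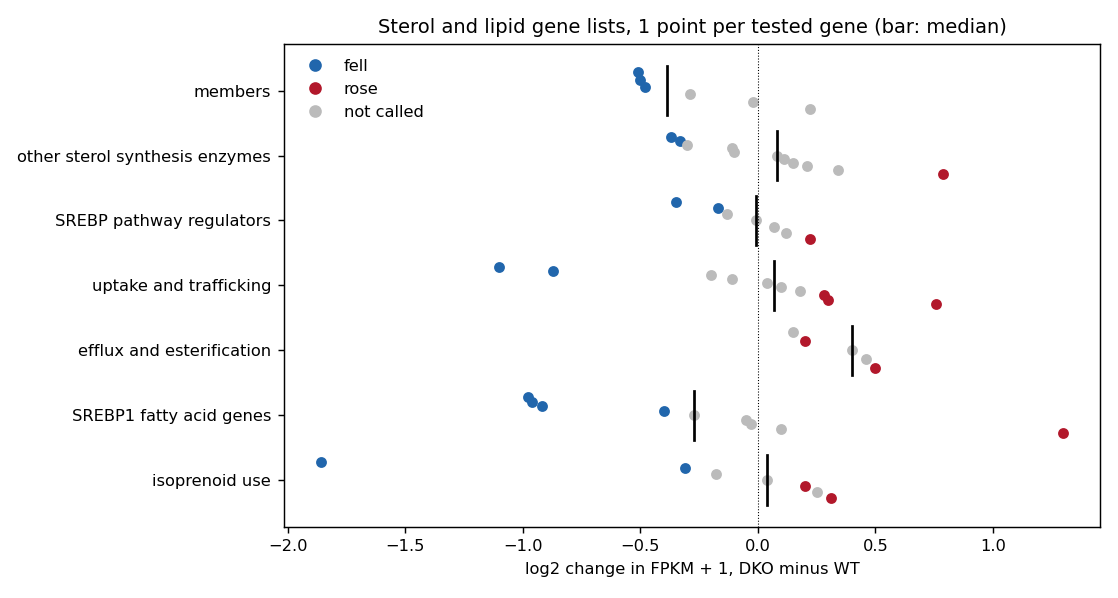
Log2 change in DKO against WT (x axis) of each tested gene of the members and the 6 sterol and lipid lists; points are genes, coloured by call, and the black bar is the list's median. The members' median was -0.39 and that of the fatty acid list -0.27, while Fntb at -1.86 and Acss2 at 1.30 were the extremes.

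Genes of cycling cells also differed between the genotypes. The summed level of 16 cell cycle genes was 122.3 and 124.6 FPKM in DKO libraries, 376.6 and 289.9 FPKM in Tcf1 KO libraries and 552.1 and 547.7 FPKM in WT libraries. All 16 were called lower in DKO against WT, beside 27.8% of all tested genes. In Tcf1 KO against WT 4 of the 16 were called lower, beside 0.754% of all tested genes. Mki67, a marker of dividing cells, had 0.93 and 0.68 FPKM in DKO libraries, 28.27 and 16.71 FPKM in Tcf1 KO libraries and 46.89 and 42.5 FPKM in WT libraries. Its order across genotypes was that of Fdft1, Idi1 and Cyp51. That order was seen in 18.2% of all tested genes, and not in Fdps, Lss or Insig1. The part of dividing cells in the falls of the members was not tested.

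Summed over its 6 genes, the B cell list was at 22.68 and 25.93 FPKM in DKO libraries, 14.94 and 16.89 FPKM in Tcf1 KO libraries and 19.77 and 20.47 FPKM in WT libraries, mostly from Cd79b, while Ms4a1 was at most 0.01 FPKM. The 7 myeloid genes summed to 8.95 and 6.93 FPKM in DKO libraries, 12.86 and 14.95 FPKM in Tcf1 KO libraries and 12.84 and 10.62 FPKM in WT libraries. Most of that sum was Cd74 and Cd68, and both fell in DKO against WT (-0.79 ± 0.16 and -0.30 ± 0.10, limma adjusted p = 0.0105 and 0.0442), while Cd14 was at 0 and Csf1r at most 0.07 FPKM. Cd74 missed the threshold without WT replicate 1 (0.0619) and without the filter (0.0844), and Cd68 missed it under 10 of 13 alternatives. The 6 stromal genes summed to 3.75 and 4.4 FPKM in DKO libraries, 2.66 and 2.11 FPKM in Tcf1 KO libraries and 2.05 and 2.26 FPKM in WT libraries. Epcam and Cdh5 made up most of it, and both were called higher in DKO against WT (0.54 ± 0.14 and 0.74 ± 0.13, limma adjusted p = 0.0221 and 0.00556). Foxn1, Krt5 and Krt8 were at most 0.04 FPKM. Col1a1 was lower in DKO libraries (0.2 and 0.19 FPKM) than in WT libraries (0.45 and 0.28 FPKM). Double-positive thymocyte genes (Dntt, Arpp21 and Aqp11) summed to 22.94 and 20.3 FPKM in DKO libraries, 35.61 and 30.88 FPKM in Tcf1 KO libraries and 11.41 and 9.84 FPKM in WT libraries. Both mutant sums lay above WT, but the genes differed. Arpp21 and Aqp11 were called higher in both mutants, and Dntt in Tcf1 KO only. Dntt was at 10.17 and 9.36 FPKM in DKO libraries, 28.31 and 24.43 FPKM in Tcf1 KO libraries and 9.1 and 8.03 FPKM in WT libraries (DKO against WT, limma adjusted p = 0.201).

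The genes of the surface markers gated out, Cd69 and Cd24a, summed to 32.98 and 29.9 FPKM in DKO libraries, 37.54 and 34.37 FPKM in Tcf1 KO libraries and 42.64 and 38.57 FPKM in WT libraries. Cd69 made up most of this sum and was called lower in DKO against WT (-0.46 ± 0.06, limma adjusted p = 0.0023). Cd24a had an estimate of the other sign, which was not called (0.37 ± 0.31, limma adjusted p = 0.352). The 5 erythroid genes, mostly Car2, summed to 18.05 and 16.63 FPKM in DKO libraries, 5.93 and 5.75 FPKM in Tcf1 KO libraries and 10.43 and 10.45 FPKM in WT libraries. The part of these cells, and of the Cd4 signal, in the members' values was not tested.

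Genes whose pattern was nearest to the mean of the 6 members were found over the 6 libraries as the smallest root mean square difference in log2(FPKM + 1) relative to WT. The 5 nearest were Dynlrb1, a dynein light chain gene, Acad12, Noa1, Fcf1 and 2210016L21Rik, with differences of 0.0249 to 0.0277. The mean of the members was -0.22 and -0.31 in DKO libraries, -0.17 and -0.11 in Tcf1 KO libraries and -0.03 and 0.03 in WT libraries. Fdft1, Idi1 and Cyp51 lay below this mean in DKO, and Lss and Insig1 above it.

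**Figure D5:**
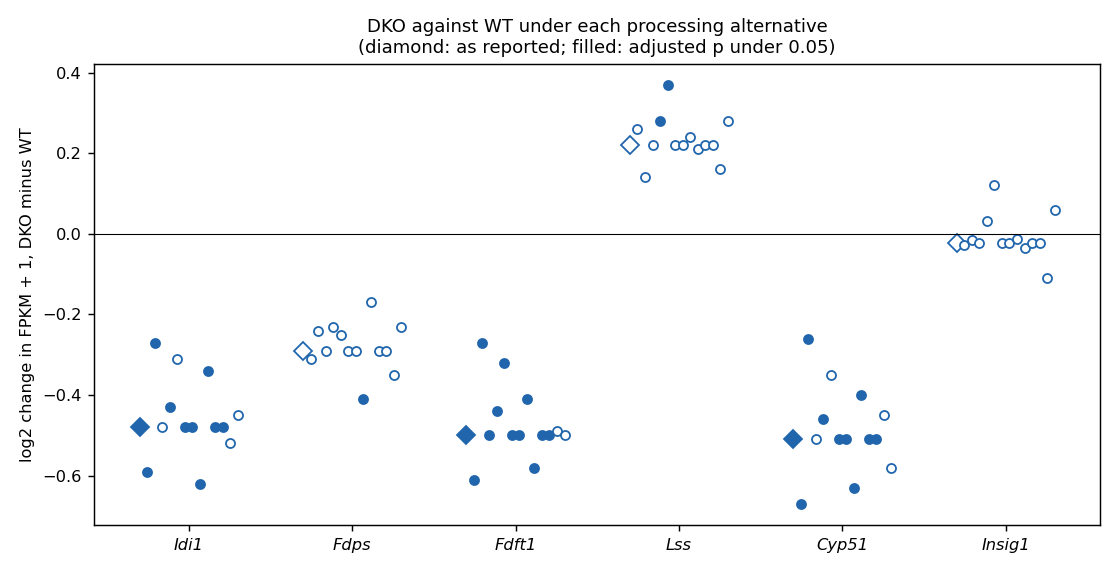
Log2 change in DKO against WT (y axis) of each member as reported (diamond) and under 13 alternatives (circles), filled where the limma adjusted p was under 0.05. Idi1, Fdps, Fdft1 and Cyp51 stayed below 0 and Lss above 0 throughout, and Insig1 lay on both sides of 0, from -0.11 to 0.12; the size also moves with the pseudocount.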

How the data were processed

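The authors deposited gene-level FPKM, a column for each library, rounded to 2 decimals. Per the submitters' processing notes, FastQC, RSEM 1.2.21 and build mm9 of the mouse genome were used. Neither aligner nor annotation is given in these sources. The table used here ends in the alphabet at Pcsk5, so later genes, among them Sqle, Srebf2 and Scap, are not analysed here. RSEM shares reads among near-identical genes. In 13 rows symbols changed to dates were restored from RefSeq accessions.

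Genes that reached 1 FPKM in 2 or more of the 6 libraries were fitted as log2(FPKM + 1). A single limma 3.58.1 model (R 4.3.3) of genotype covered the 6 libraries, with trended variances and Benjamini-Hochberg adjustment over all 6761 genes. The fit was checked on simulated data. Depth was estimated from transcripts of 400 to 1000 bases with fragments of 200 bases assumed; 63.8% to 74.7% of their low values fell within 0.25 of a whole fragment. No count test was run.

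The members and gene lists were chosen with earlier results of these data known. Named genes were the members, a few fixed genes (among them Insig2, Mvd, Lef1 and Mki67), list genes past the threshold in any comparison and at most 3 abundant others per list. The alternatives were pseudocounts of 0.1 and 5, no filter, median and quantile scaling, fits of 2 groups, a replicate block and leaving out each library. Pathway lists were described by counts, without set tests, and some genes of these lists are not reported here. Promoter windows came from RefSeq; Python 3.11.15 was used.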

Additional observations from a re-analysis of the deposited data

How the results depend on the processing

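The direction of Idi1, Fdps, Fdft1 and Cyp51 (below 0) was the same in all 3 comparisons under all 13 alternatives, and so was that of Lss (above 0) in both comparisons with DKO on top. Insig1 in DKO against WT turned to 0.0322 under median scaling and 0.12 under quantile scaling, and ranged from -0.11 to 0.0604 with 1 library left out. In Tcf1 KO against WT, leaving out 1 library gave -0.17 to 0.000527 for Insig1 and -0.12 to 0.00295 for Lss. Without the filter on low values, members called numbered 1 in DKO against WT and 0 in DKO against Tcf1 KO, and the calls over all genes were 69 in Tcf1 KO against WT; there were 1542 in DKO against Tcf1 KO, 5 of them list genes, and 16383 genes were then tested. In DKO against Tcf1 KO 1 member was called under median and under quantile scaling, and 0 when only those 2 groups were fitted; the cause was not tested. Leaving out 1 library at a time gave, in DKO against WT, 0 to 4 members, 8 to 21 list genes and 2053 to 3130 of all genes, against 3, 22 and 3345. It gave 0 to 2, 8 to 13 and 1585 to 2216 in DKO against Tcf1 KO, against 2, 13 and 2599, and 11 to 235 of all genes in Tcf1 KO against WT, against 141, each with fewer libraries in the fit.

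Libraries of different genotypes share replicate numbers, but the labels do not say that these mark a shared litter or day. Deviations of libraries with the same number correlated across genes at r = 0.154 (DKO and WT), 0.045 (Tcf1 KO and WT) and 0.147 (DKO and Tcf1 KO). With the replicate number as a block DKO against WT gave 3571 calls over all genes and 3 members. Tcf1 KO against WT then gave 151 calls and 0 members, and DKO against Tcf1 KO 2812 calls and 2 members. In data simulated for DKO against WT over 6761 genes, the fit recovered 92% of changes of 0.5 on the log2 scale and 100% of changes of 1. Smaller changes were not simulated. Only 200 genes were changed, and genes of the same level were given the same spread. In the real data more genes were called and the spread differs between genes, so these shares need not hold for the members.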
